A study of Mus musculus with 2 samples.

Results

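The 10 genes described here belong to the antioxidant defence that the transcription factor NRF2 controls. They were taken by name, with earlier results of these data known: Nfe2l2, which encodes NRF2 itself, and 9 genes of glutathione, thioredoxin and phase II metabolism (Hmox1, Nqo1, Gclc, Gclm, Gsr, Txn1, Txnrd1, Srxn1 and Prdx1). All 10 were found among the 13056 annotated genes of the deposited table. The cells were CD4+ T cells from C57BL/6 mice (wild type, 6 to 8 weeks old), kept for 48 h in medium that polarizes them to T helper 17 (Th17) cells. In one culture the antigen presenting cells (APCs) were wild type (WT). In the other they carried an OX40L transgene (OX40L-TG), which encodes the ligand of the costimulatory receptor OX40. The promoter of the transgene and the way the APCs were prepared are not given in the sources used here. Each condition has 1 RNA library, so the values compare 2 libraries, no difference has a replicate check and no test was made.

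NRF2 is held in the cytoplasm by the adaptor KEAP1 and degraded until oxidants or electrophiles modify KEAP1. It then enters the nucleus and, with a small MAF protein, binds antioxidant response elements (AREs) near its targets, where the repressors BACH1 and BACH2 compete for the same sites. Activated T cells make oxidants as they grow and depend on glutathione, a tripeptide thiol, and on thioredoxin, a small protein thiol, for DNA synthesis and to keep signalling proteins reduced. Both thiols are recycled with electrons from NADPH.

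The sequence that ties such targets together is the ARE core, written TGACNNNGC. RefSeq promoter windows of 300 bases on GRCm38.p6 (250 before and 50 after a gene's start) were matched by symbol for 7 of the 10 genes, 9 windows in all, and not for Hmox1, Gclc and Gsr. For 8 of the 9 windows the bases after the start lay in a GENCODE transcript of the same gene. On either strand, the core letters were in 5 of the 9 windows, 1 each of Nfe2l2, Gclm, Txnrd1, Srxn1 and Prdx1, against 12.4% of all 32851 windows in the table. The genes were named as NRF2 targets, so no conclusion is drawn from this share. The stretches around 4 of these matches are shown for their letters only, and binding was not measured. Each is written in the gene's own direction, with the 9 letters of the match in capitals.

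Prdx1: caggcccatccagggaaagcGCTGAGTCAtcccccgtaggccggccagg
Gclm: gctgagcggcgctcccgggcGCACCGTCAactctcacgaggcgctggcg
Txnrd1: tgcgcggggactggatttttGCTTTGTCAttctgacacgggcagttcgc
Nfe2l2: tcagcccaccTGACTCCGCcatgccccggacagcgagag

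The Prdx1 stretch lies at chr4:116685446-116685494 on the plus strand, and its match begins 133 bases before the start. It reads as the core on the opposite strand and overlaps a match to the AP-1 letters TGANTCA, which 7.81% of all windows hold. The Gclm stretch (chr3:122245403-122245451, plus strand) begins its match 134 bases before the start, also on the opposite strand. The Txnrd1 stretch (chr10:82859094-82859142, plus strand) comes from 1 of the gene's 3 windows, with the match 92 bases before that start. The Nfe2l2 stretch (chr2:75704875-75704913, minus strand) holds the core on the gene's own strand, 240 bases before the start. In Srxn1 the match GCTAGGTCA lies 29 bases after the start, and its window also holds 2 AP-1 matches that do not overlap it. The windows of Txn1 and Nqo1 hold no match, which says only that these letters are not in those bases.

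Values are FPKM, fragments per kilobase of transcript scaled to library size, as the authors deposited them, so levels can be compared between genes. The change of a gene is the log2 of its OX40L-TG-APC FPKM plus 1 over its WT-APC FPKM plus 1, which understates the change of low genes. Counts and medians cover the genes that reached 1 FPKM in at least 1 library. Low values, which step by 1 fragment, put the depth of the WT-APC library at about 24800000 fragments and that of the OX40L-TG-APC library at about 28500000 fragments. Fragment numbers derived from these give each ratio a 95% exact Clopper-Pearson interval. Such intervals cover counting error only, not the variation between cultures or mice. Over all 10645 annotated genes of at least 1 FPKM the median change was 0.11, and the median ratio of the 6038 genes of at least 10 FPKM in both libraries was 1.09. Dividing all OX40L-TG-APC values by that ratio (median scaling) brought the all-gene median to -0.0022, and of the genes that differed 2-fold it lowered the share that was higher from 63.1% to 51.8%. T cell markers were high in both libraries: Cd3e stood at 98.0 FPKM (WT-APC) and 86.5 FPKM (OX40L-TG-APC), Cd4 at 201 and 246 FPKM, and Cd2, the highest of the 10 found by the mean of both libraries, at 248 and 407 FPKM.

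The median absolute change was 0.28 for the set and 0.19 for all genes. Nqo1 was under 1 FPKM in both, and none of the other 9 was 2-fold higher or 2-fold lower, against 2.26% of all genes higher and 1.32% lower. At a threshold of 1.5-fold the counts were again 0 of 9 in each direction, against 7.21% and 3.38% of all genes. At these shares under 1 gene of 9 would be past either threshold, so counts of 0 lie near the background and set the genes apart in neither direction. The median change of the 9 genes was 0.08, beside 0.11 for all genes, and 4 of the 9 lay above that all-gene median. The authors' deposited table of 398 genes that differ between the libraries, all with a p-value under 0.05 (the largest is 0.04985) and an absolute log2 ratio of at least 1, lists none of the 10 and 8 of the pathway genes described further on. Its p-values rest on 1 library per condition, so no replicate lies behind them, and their header does not call them adjusted.

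**Figure D1:**
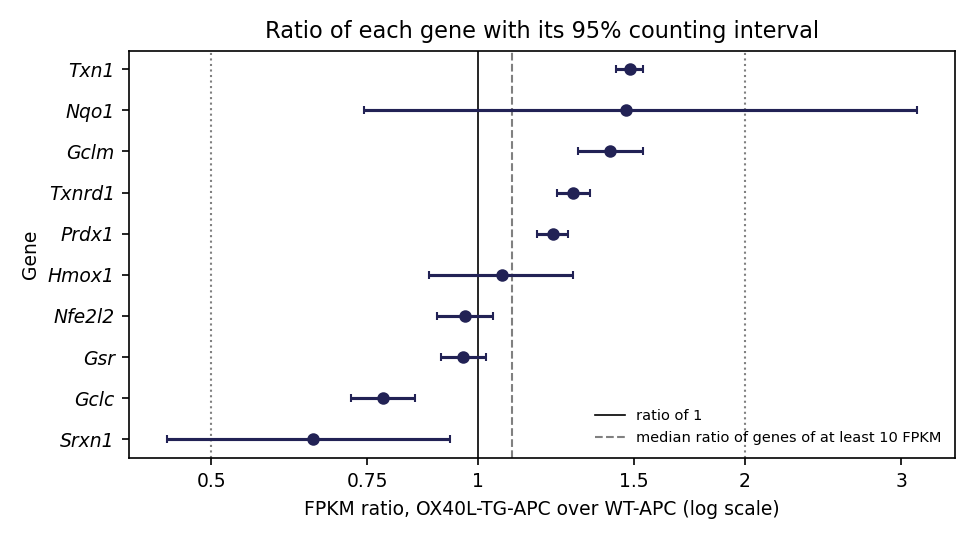
Ratio of FPKM in the OX40L-TG-APC library to FPKM in the WT-APC library for each of the 10 genes, on a log axis; points are the ratios, bars their 95% exact counting intervals, the solid line a ratio of 1, the dashed line the median ratio (1.09) of genes of at least 10 FPKM, and the dotted lines 0.5 and 2. The ratios run from 0.651 for Srxn1 to 1.48 for Txn1, and none reaches 2.

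The genes did not move one way. The counting intervals of Txn1, Gclm, Txnrd1 and Prdx1 lay wholly above 1.09, the median ratio of well-expressed genes, and those of Nfe2l2, Gsr, Gclc and Srxn1 wholly below it. Only the intervals of Hmox1 and Nqo1 included it. The share of all genes whose intervals exclude 1.09 was not counted. Counting intervals are narrow for well-expressed genes, so these counts do not set the genes apart from others. RNA of the whole culture was measured, so more cells with a transcript and more of it per cell cannot be told apart.

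The transcript of the regulator differed little. Nfe2l2 (Entrez 18024) stood at 29.8 FPKM in the WT-APC library and 28.8 FPKM in the OX40L-TG-APC library. The ratio was 0.967, and its interval (0.900 to 1.04) included 1. Under median scaling the ratio was 0.885, with an interval (0.823 to 0.950) below 1. The printed locus on chromosome 2, 75675519 to 75807087, is 132 kb long, whereas the RefSeq gene spans 29.2 kb, and it also covers 3 lncRNA genes. NRF2 is governed mainly through the stability of its protein, which these data do not measure.

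Genes for the partners and opponents of NRF2 likewise stayed within 2-fold. Of 17 listed, 15 were kept, none was 2-fold higher or lower, and their median change was 0.08. Maff, which encodes a small MAF partner, had the highest change, at 7.34 FPKM (WT-APC) and 11.6 FPKM (OX40L-TG-APC), a ratio of 1.57 (1.38 to 1.80). Bach2, which encodes a repressor that holds T cells in a quiescent state, had the lowest, at 43.0 and 33.5 FPKM, a ratio of 0.779 (0.756 to 0.803).

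Outside the naming rule, and chosen after its values were seen, the Keap1 transcript was set beside that of Nfe2l2. The balance of the proteins was not measured. Keap1 stood at 30.2 FPKM in the WT-APC library and 34.8 FPKM in the OX40L-TG-APC library. Nfe2l2 therefore stood at 0.988 times Keap1 (0.925 to 1.06) in the first and at 0.829 times (0.780 to 0.881) in the second. Against Bach2 the Nfe2l2 level was 0.695 times (0.657 to 0.734) and 0.862 times (0.816 to 0.909). These ratios are taken within a library and do not depend on how the libraries are scaled.

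**Figure D2:**
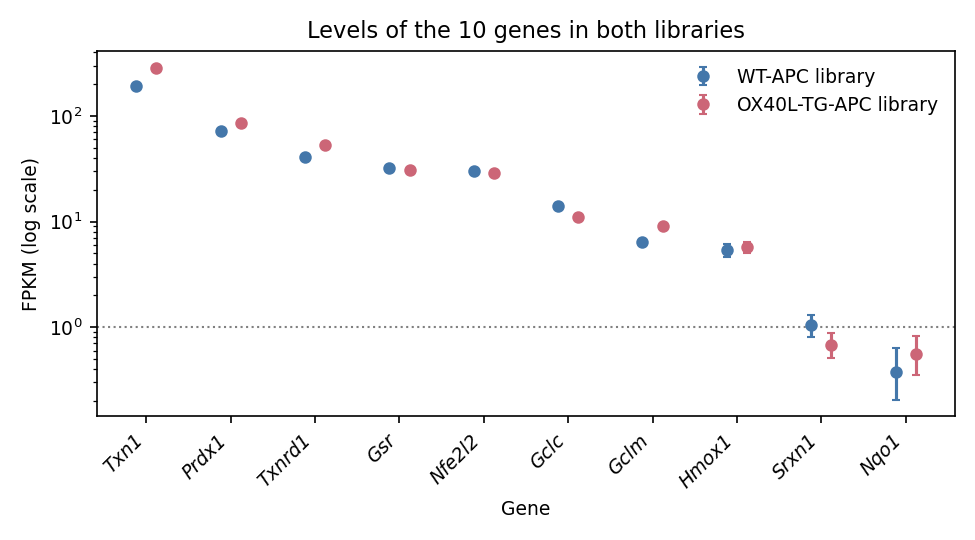
FPKM of the 10 genes in the WT-APC and OX40L-TG-APC libraries on a log axis; points are single libraries, bars are 95% exact Poisson counting intervals (hidden by the point where narrow), and the dotted line marks 1 FPKM. Txn1 is highest in both libraries (190.5 and 282 FPKM) and Nqo1 lowest (0.375 and 0.550 FPKM).

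The genes kept the same order of level in both libraries, from Txn1 through Prdx1, Txnrd1, Gsr, Nfe2l2, Gclc, Gclm, Hmox1 and Srxn1 down to Nqo1. The thioredoxin arm thus held the first 3 places. Gsr and Nfe2l2 did not differ beyond their counting intervals in either library, nor did Gclm and Hmox1 in the WT-APC library, nor Srxn1 and Nqo1 in the OX40L-TG-APC library. The intervals of all other neighbours were apart.

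Glutathione is made in 2 steps, and the first, rate-limiting step belongs to glutamate-cysteine ligase, whose catalytic subunit is encoded by Gclc and whose modifier subunit by Gclm. Their transcripts went opposite ways. Gclc (Entrez 14629, chromosome 9, 77754535 to 77794721) stood at 14.1 FPKM with WT APCs and 11.0 FPKM with OX40L-TG APCs, a ratio of 0.781 (0.719 to 0.849). Gclm (Entrez 14630, chromosome 3, 122245557 to 122267215) had 6.43 FPKM with WT APCs and 9.06 FPKM with OX40L-TG APCs, a ratio of 1.41 (1.29 to 1.53). The first was lower and the second higher in the OX40L-TG-APC library, and both directions held under median scaling (log2 changes of -0.45 and 0.32) and when the libraries' FPKM totals were made equal (-0.49 and 0.28).

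Gclc thus stood at 2.19 times Gclm (2.002 to 2.39) in the WT-APC library and at 1.21 times Gclm (1.12 to 1.31) in the OX40L-TG-APC library, intervals that did not overlap. This pair and the others shown within libraries were chosen after their values were seen. The modifier subunit raises the affinity of the enzyme for glutamate and lowers its inhibition by glutathione.

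**Figure D3:**
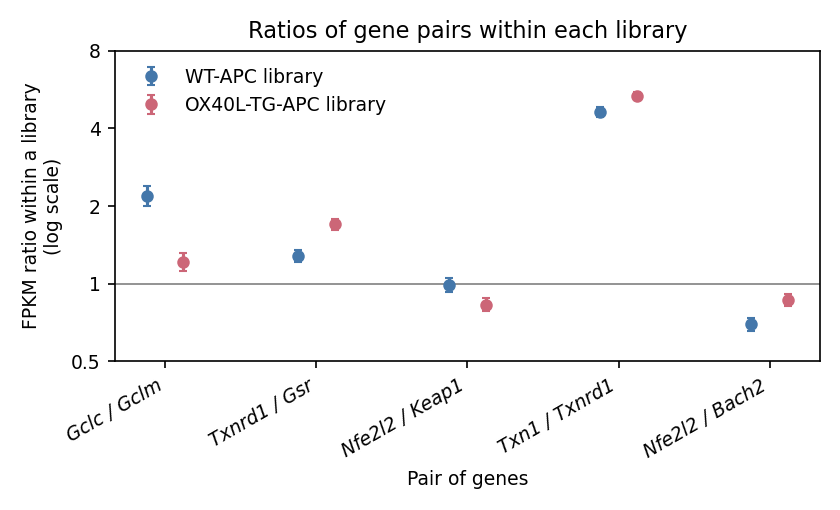
FPKM of 1 gene divided by that of another within each library, on a log axis, for 5 pairs; points are the ratios in the WT-APC and OX40L-TG-APC libraries and bars their 95% exact counting intervals. Gclc over Gclm is 2.19 in the WT-APC and 1.21 in the OX40L-TG-APC library, and Txnrd1 over Gsr is 1.28 and 1.70.

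Among the other genes of glutathione supply and breakdown, the ends of the list were enzymes of breakdown. Of 15 listed, 11 were kept, 1 was 2-fold higher, none was 2-fold lower, and their median change was 0.32. The higher one was Chac1, which encodes an enzyme that breaks glutathione down, at 0.265 FPKM (WT-APC) and 1.73 FPKM (OX40L-TG-APC). Chac1 was kept only through the OX40L-TG-APC library, so its direction is tied to the filter. Its ratio of 6.51 had an interval of 3.36 to 13.2, since about 11 fragments lay behind the lower value. Ggt1, which encodes a cell surface enzyme that splits glutathione outside the cell, had the lowest change, at 1.34 and 0.429 FPKM. Its ratio was 0.3196 (0.193 to 0.4996), but its log2 change with the pseudocount was -0.71. Ggt1 was kept only through the WT-APC library, so its direction is likewise tied to the filter.

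Gsr encodes glutathione reductase, which returns oxidized glutathione to its reduced form with NADPH. It stood at 32.3 FPKM in the WT-APC library and 31.0 FPKM in the OX40L-TG-APC library (Entrez 14782, chromosome 8, 33653238 to 33698162). The ratio of 0.962 had an interval (0.907 to 1.02) that included 1. Under median scaling the ratio was 0.880, with an interval (0.830 to 0.934) below 1.

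Among the enzymes that use glutathione, 28 were listed, 24 were kept, none was 2-fold higher and 1 was 2-fold lower, and the median change was 0.35. The lower one was Glrx, which encodes the cytosolic glutaredoxin that removes glutathione from protein thiols. It stood at 23.5 FPKM (WT-APC) and 8.97 FPKM (OX40L-TG-APC), 2.62-fold lower (2.30 to 2.98). In the authors' deposited table the log2 ratio of Glrx was -1.36, with a p-value of 0.00665 that compares these 2 libraries. Mgst3, a microsomal transferase gene, had the highest change, at 6.52 and 12.99 FPKM (ratio 1.99, 1.66 to 2.39).

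The thioredoxin arm was higher in the OX40L-TG-APC library in 3 of its 4 genes. Txn1 encodes cytosolic thioredoxin, the protein that passes electrons to ribonucleotide reductase and to peroxiredoxins. It stood at 190.5 FPKM with WT APCs and 282 FPKM with OX40L-TG APCs (Entrez 22166, chromosome 4, 57943373 to 57956411). This was the largest change of the 9 genes, with a ratio of 1.48 (1.43 to 1.54) and a log2 change of 0.56. A larger absolute change was found in 11.3% of all genes, and the mean level of Txn1 exceeded that of 98.0% of them.

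Txnrd1 encodes the cytosolic selenoprotein reductase that recharges thioredoxin. It stood at 41.2 FPKM (WT-APC) and 52.7 FPKM (OX40L-TG-APC), a ratio of 1.28 (1.23 to 1.34). Its printed locus (Entrez 50493, chromosome 10, 82833951 to 82897724) also covers Eid3, which the table lists at 2.12 and 1.89 FPKM, and a lncRNA gene. Set against Gsr, the other NADPH-dependent disulphide reductase, Txnrd1 was 1.28 times as high (1.21 to 1.35) in the WT-APC library and 1.70 times as high (1.62 to 1.78) in the OX40L-TG-APC library. Against its reductase, Txn1 stood at 4.62 times Txnrd1 (4.43 to 4.83) in the first and 5.35 times (5.17 to 5.54) in the second.

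Prdx1 encodes a peroxiredoxin, which reduces hydrogen peroxide and is itself reduced by thioredoxin. It stood at 71.3 FPKM with WT APCs and 86.5 FPKM with OX40L-TG APCs, a ratio of 1.21 (1.16 to 1.26). Its locus (Entrez 18477, chromosome 4, 116684962 to 116700000) also covers the lncRNA gene AV051173. Prdx1 and Txn1 have processed pseudogenes that match their transcripts over at least 200 bases at 95% identity or more: 2 for Prdx1, over up to 597 bases, and 1 for Txn1, over 309 bases. How reads that fit both a gene and its copy were counted is not given in the sources used here, so the levels of these genes are uncertain to that extent.

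Srxn1 encodes sulfiredoxin, which repairs peroxiredoxins that have been over-oxidized. It was low, at 1.04 FPKM in the WT-APC library and 0.676 FPKM in the OX40L-TG-APC library (Entrez 76650, chromosome 2, 152105524 to 152111376). Srxn1 was kept only through the WT-APC library, so its direction is tied to the filter. It was the lowest ratio of the 10 genes, 0.651 (0.445 to 0.930), from about 73 and 54 fragments, and the log2 change with the pseudocount was -0.28.

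Shares within these families were also taken, a choice made after the values were seen. Of the summed FPKM of the 6 peroxiredoxin genes, Prdx1 made up 12.3% in the WT-APC library and 12.7% in the OX40L-TG-APC library. The share that differed most was that of Prdx6, at 17.5% and 11.5% (101 and 78.5 FPKM). Txnrd1 made up 83.6% and 82.7% of the 3 thioredoxin reductase genes. Txn1 made up 78.7% and 84.3% of the sum with Txn2, the mitochondrial thioredoxin gene, which stood at 51.7 and 52.8 FPKM.

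In the list of the remaining thioredoxin and peroxiredoxin genes, 19 of 20 were kept, none was 2-fold higher or lower and the median change was 0.23. The sestrin genes held both ends. Sesn2, a stress-induced antioxidant and growth regulator gene, had the highest change, at 3.45 FPKM (WT-APC) and 7.49 FPKM (OX40L-TG-APC), a ratio of 2.17 (1.90 to 2.50) and a log2 change of 0.93 with the pseudocount. The authors' deposited table lists Sesn2 with a log2 ratio of 1.15 and a p-value of 0.0293. Sesn3, which FOXO factors induce in resting cells, had the lowest, at 140.5 and 89.7 FPKM, a ratio of 0.638 (0.627 to 0.649).

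The phase II genes of the set, Hmox1 and Nqo1, were both under 6 FPKM. Hmox1 encodes the inducible haem oxygenase, which breaks haem down to biliverdin, iron and carbon monoxide. It stood at 5.35 FPKM with WT APCs and 5.69 FPKM with OX40L-TG APCs (Entrez 15368, chromosome 8, 75089097 to 75100593). The ratio of 1.06 had an interval (0.880 to 1.28) that included 1, and the log2 change of 0.08 became -0.03 under median scaling and -0.08 when totals were made equal. Hmox1 made up 7.90% and 7.87% of the sum with Hmox2, the constitutive haem oxygenase gene, at a printed locus that covers other genes too.

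Nqo1 encodes a quinone reductase and is a textbook NRF2 target. It stood at 0.375 FPKM in the WT-APC library and 0.550 FPKM in the OX40L-TG-APC library (Entrez 18104, chromosome 8, 107388225 to 107403205). The ratio of 1.47 rested on about 14 and 24 fragments, and its interval (0.743 to 3.13) included 1, so no difference was detectable at this depth.

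Of 25 further haem, iron and detoxification genes, 18 were kept, 1 was 2-fold higher, none was 2-fold lower and the median change was 0.26. Trim16 was the higher one, at 1.07 FPKM (WT-APC) and 3.32 FPKM (OX40L-TG-APC), a ratio of 3.09 (2.48 to 3.89), though its log2 change of 1.06 was 0.96 under median scaling. In the authors' deposited table Trim16 had a log2 ratio of 1.66 and a p-value of 0.01. Abcc4, which encodes an export pump for organic anions, had the lowest change, at 9.17 and 6.65 FPKM (ratio 0.725, 0.668 to 0.788).

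**Figure D4:**
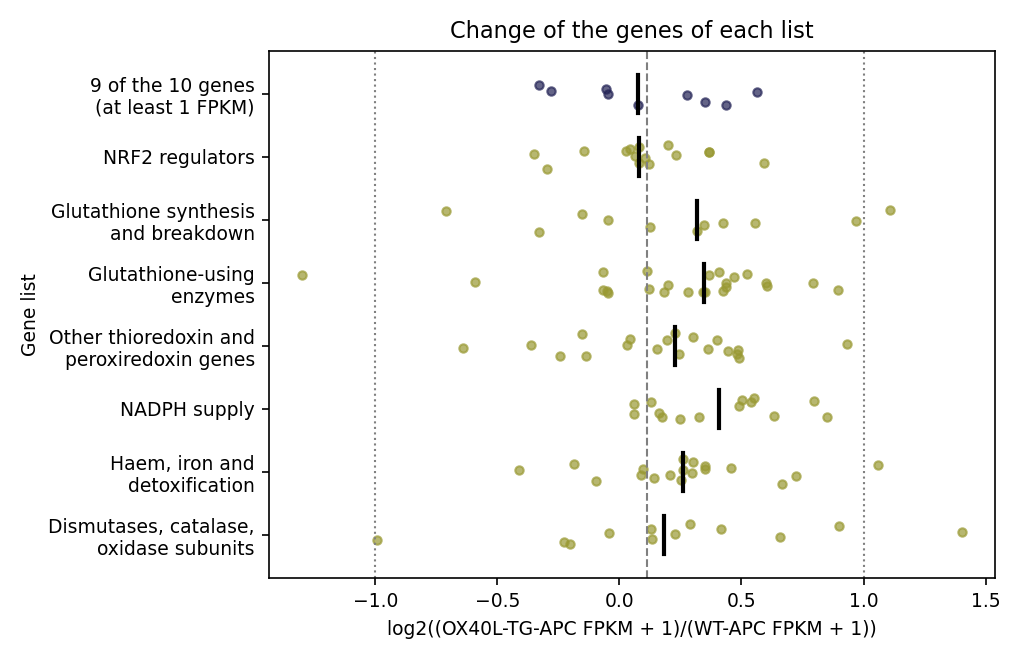
Log2 change of each kept gene between the libraries (pseudocount 1 FPKM) for the NRF2 target genes described here and 7 pathway lists; each point is a gene (spread vertically at random for legibility), black bars are medians, the dashed line is the median of all genes (0.11) and dotted lines mark 2-fold. The median of the NRF2 target genes is 0.08 and that of the NADPH supply list 0.41.

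The genes that supply NADPH had the highest median of the 7 lists, 0.41, which was 0.28 under median scaling. Of 16 listed, 14 were kept, none was 2-fold higher or lower, and 12 lay above the all-gene median. Idh1, which encodes the cytosolic NADP-dependent isocitrate dehydrogenase, had the highest change, at 5.31 FPKM (WT-APC) and 10.4 FPKM (OX40L-TG-APC), a ratio of 1.96 (1.70 to 2.24). Its log2 ratio without the pseudocount was 0.97. The authors' deposited table, whose FPKM differ slightly, gave Idh1 a log2 ratio of 1.00 with a p-value of 0.0443. Nnt, which encodes the mitochondrial transhydrogenase and whose locus also covers Paip1, had the lowest, at 6.14 and 6.44 FPKM (ratio 1.05, 0.932 to 1.18), and its log2 change of 0.06 was -0.05 under median scaling.

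Among superoxide dismutases, catalase and subunits of the NADPH oxidase, 12 of 18 listed genes were kept, 1 was 2-fold higher, none was 2-fold lower and the median change was 0.18. The ends were subunits of the same oxidase. Ncf1, which encodes the organizer subunit p47phox, stood at 15.9 FPKM (WT-APC) and 43.7 FPKM (OX40L-TG-APC), a ratio of 2.75 (2.56 to 2.94), and the authors' deposited table gave it a log2 ratio of 1.49 with a p-value of 0.00055. Cybb, which encodes the catalytic subunit gp91phox, stood at 3.92 and 1.47 FPKM, 2.66-fold lower (2.25 to 3.16), with a log2 change of -0.99, short of 2-fold, and of -1.07, past it, under median scaling. In the authors' deposited table the log2 ratio of Cybb was -1.38, with a p-value of 0.01235.

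Over the 7 pathway lists together, 113 of 139 genes were kept. Of these, 3 (2.65%) were 2-fold higher and 1 (0.885%) was 2-fold lower, close to the 2.26% and 1.32% of all genes. Among the 3 higher genes, Chac1 was kept only through the OX40L-TG-APC library. At 1.5-fold 17 were higher and 5 lower, beside 7.21% and 3.38% of all genes. The 8 that the authors' deposited table lists are Glrx, Cybb, Ncf1, Sesn2, Idh1 and Trim16, and also Gsta4 (log2 ratio -1.44, p-value 0.02775) and Slc1a4 (1.30, 0.01705). Gsta4 was low, at 1.15 FPKM (WT-APC) and 0.423 FPKM (OX40L-TG-APC), from about 28 and 12 fragments. It was kept only through the WT-APC library. Its printed locus covers other genes too. The median change was 0.25, and 75 of the 113 (66.4%) lay above the median of all genes.

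Markers of other cell types that such a culture could hold also differed between the libraries. The summed level of the 12 B cell markers was 58.8 FPKM in the WT-APC library and 25.7 FPKM in the OX40L-TG-APC library. Of these markers, 11 were kept, 4 were 2-fold lower and none reached 2-fold higher. Beside these and the marker counts below, 1.32% of all genes were 2-fold lower and 2.26% 2-fold higher. Fcrla, 1 of the 4 lower ones, was kept only through the WT-APC library (3.76 and 0.949 FPKM). Cd79b, the highest by the mean of both, stood at 11.9 and 6.398 FPKM. Fcmr, picked out after its values were seen, went the other way, at 0.617 and 1.68 FPKM (ratio 2.72, 1.67 to 4.35; log2 change 0.73). The 16 monocyte and macrophage markers summed to 13.0 and 6.72 FPKM, with 3 kept and 2 of these 2-fold lower. Tyrobp, 1 of the 2, was kept only through the WT-APC library (2.87 and 0.827 FPKM). Lyz2, the highest by the mean of both, stood at 4.55 and 1.006 FPKM, whereas Cd68, also picked out after its values were seen, stood at 2.25 and 2.44 FPKM. Vcam1, picked out in the same way and under 1 FPKM in both, stood at 0.145 and 0.768 FPKM. C1qb was at 0.170 FPKM, about 5 fragments, in the WT-APC library and listed at 0 in the other, too few to show a difference. Of the 10 dendritic cell markers, 5 were kept, 1 was 2-fold higher and 2 were 2-fold lower. The higher one was Batf3 (2.18 and 21.5 FPKM), at a printed locus that covers other genes too. Which cells held its transcript was not measured. The lower ones were Flt3 (3.46 and 1.09 FPKM) and Cd86 (13.4 and 6.07 FPKM). The 10 markers summed to 179 and 226 FPKM, most of it from Ccr7 (147 and 188 FPKM), which T cells also express. The higher sum thus came from Ccr7 and Batf3, whereas Flt3, Cd86 and Cd83 (11.4 and 8.82 FPKM) were lower. Clec9a and Siglech were at 0.0249 and 0.0511 FPKM, under 3 fragments each, in the WT-APC library and listed at 0 in the other, which shows no difference. Erythroid markers, which matter for the haem genes, summed to 18.9 and 30.1 FPKM over the 7 of 9 found; 4 were kept, 1 was 2-fold higher and 1 lower. Those 2 were the beta-globin paralogues Hbb-b1 (0.000648 and 4.24 FPKM) and Hbb-b2 (1.68 and 0.253 FPKM), which share 1 printed locus (chromosome 7, 103812524 to 103813923), so their separate values are uncertain. Hba-a1, the highest, stood at 10.1 and 16.4 FPKM. The part of these cells in the values of the NRF2 target genes was not tested.

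By distance between log2(FPKM + 1) values over the 2 libraries, the protein-coding genes nearest to Txn1 were H2ac11, Fam162a and Tkt. H2ac11, a histone H2A gene with near-identical copies and uncertain for that reason, stood at 189 FPKM (WT-APC) and 276 FPKM (OX40L-TG-APC), at a distance of 0.036. Fam162a stood at 183 and 288 FPKM, at 0.065. Tkt, which encodes transketolase of the pentose phosphate pathway and is in the NADPH supply list, stood at 190.3 and 295 FPKM, at 0.066. Likeness over 2 libraries rests on 2 values per gene.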

How the data were processed

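The authors deposited FPKM values per gene for both libraries, for which the submitters' processing notes name TopHat2, Cuffdiff and mm9. Tool versions, the annotation, how strand was treated and any filtering are not given in the sources used here. Printed loci follow GRCm38: for 5194 genes the start was 1 base below the RefSeq start and for 229 equal to it, so starts were counted from 0 and are given here from 1. A second deposited table holds the authors' log2 ratios and p-values, per the file headers. Its FPKM differ slightly from those used here for some genes, and so do its log2 ratios. Idh1 stood at 5.19 FPKM (WT-APC) and 10.38 FPKM (OX40L-TG-APC) in it, against 5.31 and 10.39 FPKM here. Symbols came from RefSeq, which held 13030 of 13056 identifiers.

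Per the labels, each library was made from 1 µg of total RNA. Library sizes came from the steps of low FPKM values: 416 genes with 1 curated transcript of at least 1500 bases and values under 0.3 FPKM, of which 78.6% gave whole-fragment ratios within 0.2% (7.93% at a shifted ratio). Fragments used the median length of curated transcripts, with no correction for fragment length. The procedure was tested on simulated fragments drawn with the same transcript lengths, so errors in lengths or read assignment could not show. Members and lists were chosen with earlier results of these data known. All 10 members were named, with each pathway list's highest and lowest change and genes past 2-fold, each cell type list's highest gene, and the 3 genes nearest Txn1. Lists held 139 pathway genes (128 found). Copies were sought with BLAST 2.17.0. Python 3.11.15, scipy 1.17.1 and pandas 2.3.3 were used. Pseudocount, scaling, filter and threshold were varied.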

Additional observations from a re-analysis of the deposited data

How the results depend on the processing

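No paired analysis was possible because each condition had 1 library. The counts of NRF2 target genes past the threshold stayed at 0 in both directions under each of 7 alternatives: pseudocounts of 0.1 and 5 FPKM, median scaling, equal totals, no filter, a filter of 5 FPKM and a 1.5-fold threshold. Their median change of 0.08 was 0.0877 and 0.0469 with these pseudocounts, -0.0322 under median scaling, -0.0757 with equal totals, 0.12 without the filter and 0.18 with the stricter one. Of the pathway list genes, 3 were 2-fold higher and 1 lower in the main analysis. With a pseudocount of 0.1, 5 were higher and 4 lower, and 1 was higher with a pseudocount of 5 and 1 with the 5 FPKM filter. Under median scaling 2 were higher and 2 lower, and with equal totals 1 was higher and 2 were lower. At 1.5-fold 17 of 113 were higher and 5 lower, beside 7.21% and 3.38% of all genes. Either scaling moved 7 of the 10 single changes outside their counting intervals, and of their signs it turned that of Hmox1. The authors' table as a source could not be used for these genes, since it lists none of them. Depth limits Nqo1 and Srxn1 most.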

Other observations

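The table lists further features at the printed loci of these genes. At the locus of Gclc the feature n283442 stood at 0.927 FPKM in the WT-APC library and 0.697 FPKM in the OX40L-TG-APC library, and at that of Srxn1 the feature n279682 stood at 0.0800 and 0.105 FPKM. What identifiers that start with n stand for is not explained in the file.

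Slc7a11, which encodes the cystine transporter that feeds glutathione synthesis and is a known NRF2 target, was left out of the counts for its low level. It stood at 0.335 FPKM with WT APCs and 0.172 FPKM with OX40L-TG APCs, a ratio of 0.513 (0.345 to 0.746), and was picked out after its values were seen.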
